A study of Mus musculus with 27 samples.

Results

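Cadherins and protocadherins are calcium-dependent adhesion proteins of the cell surface. The genes were taken by symbol, as those whose array name starts with Pcdh or with Cdh and a digit, with Pcdh10 left out, and a gene with several probes was represented by the probe with the highest mean. This gave 56 genes of the 16675 named on the array, and 83 of its 29922 probes. They comprise 5 type I and 11 type II classical cadherins, 5 other cadherins, 7 delta protocadherins, 4 other protocadherins outside the gene clusters, and 1 alpha, 21 beta and 2 gamma genes of the clustered protocadherins. Of the 56 genes, 27 lie on chromosome 18, 8 on chromosome 8 and 6 on chromosome 14, by the gene table of RefSeq for GRCm38.p6. Pcdh21 is listed there under its current name, Cdhr1.

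The tissue was olfactory mucosa of 25-day-old female mice of the FVB strain, housed in groups from birth. In the operated mice 1 nostril had been closed by cautery (unilateral naris occlusion), which gave the occluded mucosa behind the closed nostril and the open mucosa of the other side of the same individuals. The normal mucosa came from other mice that had been given a sham cautery and had no closed nostril. Each of the occluded, open and normal groups had 3 biological replicates with 3 arrays each, and the values below are log2 intensity, averaged over the arrays of a replicate. The open side belongs to an operated mouse, so that occluded against open compares the sides of the operated mice, and normal is the group without an occlusion. Whole mucosa was measured, so fewer cells of a type and less RNA per cell cannot be told apart.

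Classical cadherins join cells through contacts between identical molecules and are tied to the actin skeleton by catenins inside the cell. Type II cadherins and the delta protocadherins are present in the nervous system in combinations that differ between neuron groups. The clustered protocadherins are chosen by each neuron through its use of alternative promoters, which gives neurons distinct surface identities, and in mice alpha cluster genes are needed for the axons of olfactory sensory neurons to gather in orderly glomeruli. Isoforms of the alpha and of the gamma cluster share their last exons, and beta genes are close in sequence, so that clustered protocadherins may share probes. Probe sequences were not analysed here, and cross-reading was not tested.

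Of the 56 genes, 52 were detected, meaning that the probe lay at or above the noise limit of the array on at least 14 of the 27 arrays. Those not detected were Cdh8 (12 arrays), Pcdh17 (1 array), Pcdhb5 (5 arrays) and Pcdhb7 (2 arrays). Between 50 and 55 of the 56 probes lay at or above the limit on an array, and none was saturated on any array. The median intensity of an array over all probes was 123 to 274, and between 8.57% and 19.8% of all probes lay below the noise limit. The 6 measured markers of mature olfactory neurons, the cells that define this tissue, had a mean log2 intensity between 13.87 and 14.66 in the 9 replicates, and among them Omp was saturated on 9 occluded, 8 open and 9 normal arrays. The number of arrays and mice limits the precision, and the p-values set a difference between groups against the spread between these replicates.

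No cadherin or protocadherin passed an adjusted p of 0.05 in limma in any of the 3 comparisons. In occluded against open mucosa 0 of 56 passed, against 66 of all 29922 probes (0.221%). The same count was 0 of 56 in occluded against normal mucosa, where 2 of all probes passed (0.00668%), and 0 of 56 in open against normal mucosa, where 0 passed (0%). At an unadjusted p under 0.05 there were 6 genes in occluded against open mucosa, 5 higher and 1 lower on the occluded side (10.7% of the 56, against 6.19% of all probes, with 3.56% higher and 2.63% lower). Occluded against normal gave 1 higher and 1 lower, beside 2.88% of all probes (1.62% higher and 1.25% lower), and open against normal gave 0 higher and 2 lower, beside 1.59% (0.789% higher and 0.805% lower). The median difference over the 56 genes was -0.0015 for occluded minus open, -0.0010 for occluded minus normal and -0.04 for open minus normal, beside 0.0042, 0.0063 and -0.0038 over all probes. In occluded minus open 28 genes lay above 0 and 28 below (50% above, beside 50.7% of all probes). In occluded minus normal 27 lay above 0 (48.2%, beside 51%), and in open minus normal 26 (46.4%, beside 49.1%). Taking the pairs of equal number, 9 genes were higher on the occluded side in 3 of 3 pairs (16.1%, beside 13.8% of all probes) and 11 were lower in 3 of 3 (19.6%, beside 12.6%). The 9 were Cdh13, Cdh15, Cdh18, Cdh20, Cdh22, Pcdh9, Pcdh21, Pcdhb3 and Pcdhgc5. The 11 were Cdh1, Cdh5, Cdh11, Pcdh8, Pcdh19, Pcdhb4, Pcdhb12, Pcdhb15, Pcdhb17, Pcdhb22 and the undetected Pcdhb5.

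The intervals describe the precision of 1 probe per gene, each taken alone, and do not bound the change of the gene. For Pcdh9 the interval of the representative probe in occluded minus open ran between -0.16 and 0.56, while another probe differed by 1.44. In occluded minus open, the 95% interval of 44 of the 56 genes lay within 1 log2 unit of 0, that is within a doubling or halving, and the median reach of an interval on either side of its value was 0.44. In occluded minus normal and open minus normal, 43 and 37 genes had intervals within that range. Differences between the mean values ran between -0.85 and 0.98 for occluded minus open, between -0.76 and 0.85 for occluded minus normal and between -0.75 and 0.61 for open minus normal. The lowest value in the first and in the second of these ranges belongs to a gene that was not detected.

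**Figure D1:**
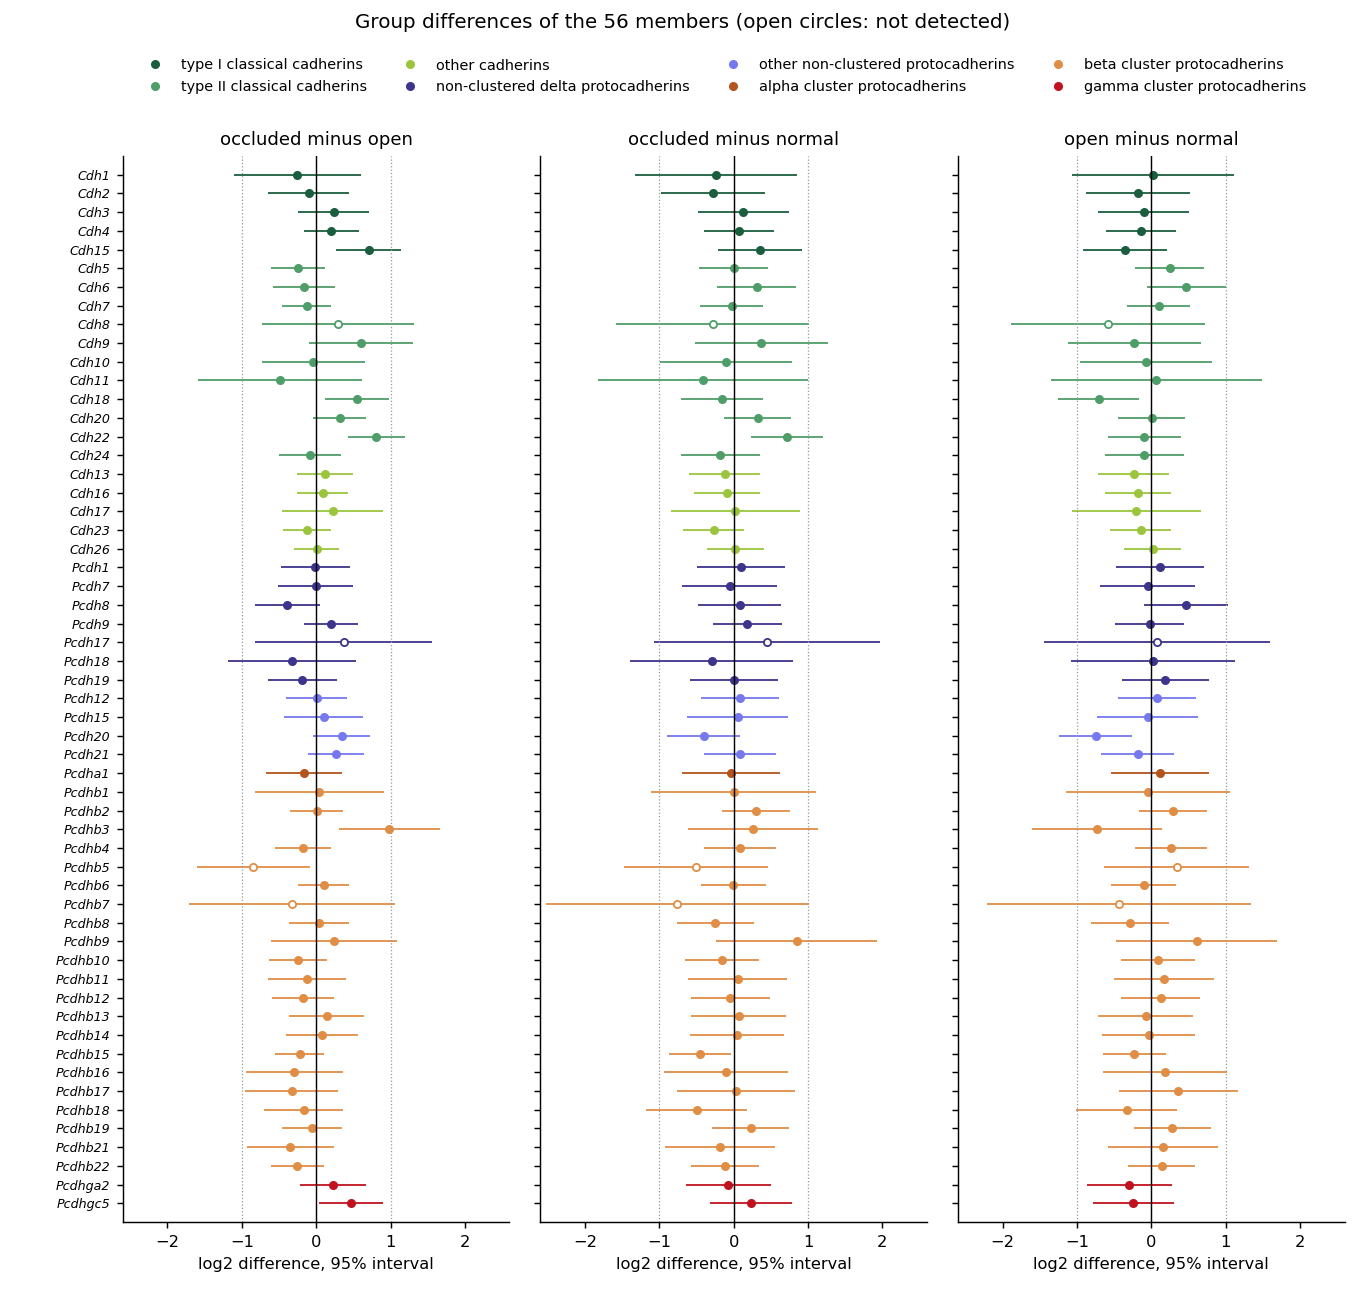
Log2 differences (horizontal axis, 95% intervals as lines) of the 56 genes (vertical axis, coloured by family) for occluded minus open, occluded minus normal and open minus normal; open circles are the 4 genes not detected. The points lie on both sides of 0 in each panel, and for 44, 43 and 37 genes the interval stays within the dotted lines at 1 log2 unit.

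Type I classical cadherins form the adherens junctions of epithelia, nerve and muscle, and their 5 members had a median occluded minus open difference of 0.21, with 3 above 0 and 2 below. The member furthest from 0 was Cdh15 (M-cadherin), a cadherin of muscle precursor cells. Cdh15 had 10.37, 9.80 and 9.65 in occluded mucosa, 9.50, 8.99 and 9.20 in open mucosa, and 9.85, 9.29 and 9.60 in normal mucosa. All 3 occluded replicates lay above all 3 open replicates, while the normal replicates overlapped both groups. The occluded minus open difference was 0.71 ± 0.19 (SE), or 1.63-fold, with the occluded side higher in 3 of 3 pairs (limma adjusted p = 0.40), and it did not pass. Against normal mucosa the occluded side differed by 0.36 ± 0.25. Of 9 measured skeletal muscle markers, 6 lay above 0 in occluded minus open, with a median of 0.11. Their mean log2 intensity was 6.55 to 6.94 in occluded, 6.35 to 6.75 in open and 6.50 to 6.90 in normal replicates. The defining muscle markers Myog and Myod1 were at or above the noise limit on 27 and 25 arrays and differed by 0.35 ± 0.23 and 0.22 ± 0.19. By pair Myog differed by 0.05, 0.0017 and 0.99, so that pair 3 carries its value, and Acta1, Myh1 and Myh4 lay below 0. The part of muscle in the Cdh15 values was not tested.

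The other type I genes had wide or small differences. Cdh1 (E-cadherin), which joins epithelial cells, had 10.77, 12.10 and 12.19 in occluded mucosa, 10.99, 12.26 and 12.55 in open mucosa, and 11.23, 12.46 and 12.07 in normal mucosa. The groups overlapped, and the occluded minus open difference was -0.25 ± 0.37. By pair Cdh1 differed by -0.23, -0.17 and -0.36, lower on the occluded side in 3 of 3, while replicate 1 lay far below the others in each group. Cdh2 (N-cadherin), the main cadherin of neural tissue, differed by -0.10 ± 0.24, Cdh3 (P-cadherin), a cadherin of basal epithelial cells, by 0.23 ± 0.21, and Cdh4 (R-cadherin, first known from retina) by 0.21 ± 0.16 in the same comparison.

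Type II classical cadherins had a median of -0.04 in occluded minus open, with 5 of 11 above 0. Cdh22, a cadherin named PB-cadherin for pituitary and brain, had the smallest p of the 56 representative probes in that comparison. Its log2 intensity was 7.69, 7.85 and 8.05 in occluded mucosa, 7.10, 7.04 and 7.02 in open mucosa, and 7.37, 6.77 and 7.29 in normal mucosa. All 3 occluded replicates lay above all replicates of both other groups, and the open replicates fell within the range of the normal ones. Cdh22 differed by 0.81 ± 0.17 (SE) in occluded minus open, or 1.75-fold, with the occluded side higher in 3 of 3 pairs (limma adjusted p = 0.17). In occluded minus normal it differed by 0.72 ± 0.21, or 1.64-fold (limma adjusted p = 1.0). Neither passed, while the unadjusted p was 0.0010 and 0.0090. Over 14 alternative settings the occluded minus open value ran between 0.63 and 0.93, and the lowest adjusted p among them was 0.067.

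Markers of mature olfactory neurons lay in the same direction. Omp differed by 0.0031 and was saturated in nearly all arrays, so its sign cannot be read. The other 5 lay above 0 in occluded minus open, between 0.34 and 0.53, with 4 of them at an unadjusted p under 0.05 and 0 after adjustment, and Cnga2 was saturated on 3 occluded arrays. With Omp included, the mean log2 intensity of the 6 markers was 14.44, 14.60 and 14.66 in occluded, 14.09, 14.22 and 14.22 in open and 13.87, 14.23 and 14.34 in normal replicates. Like Cdh22, the list mean was higher in each occluded replicate than in each open or normal one, and its part in the Cdh22 values was not tested.

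Among the representative probes, those of Cdh22 and Cdh15 had the smallest p in occluded against open. The promoters of these genes, from 250 bases before to 50 after the start of the gene, are shown with the letters of the E-box in capitals. The E-box, CANNTG, is read by basic helix-loop-helix factors such as those of muscle and of neuron precursors, and it reads the same on both strands. The sequences are RefSeq's on the GRCm38.p6 assembly, at chr2:165234688-165234987 on the minus strand for Cdh22 and at chr8:122848124-122848423 on the plus strand for Cdh15.
Cdh22: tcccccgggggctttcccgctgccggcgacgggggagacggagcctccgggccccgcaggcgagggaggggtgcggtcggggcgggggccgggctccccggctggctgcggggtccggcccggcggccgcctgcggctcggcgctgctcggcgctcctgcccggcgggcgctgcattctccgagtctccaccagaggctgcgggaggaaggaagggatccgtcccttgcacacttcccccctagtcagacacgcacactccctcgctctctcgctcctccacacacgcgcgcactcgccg
Cdh15: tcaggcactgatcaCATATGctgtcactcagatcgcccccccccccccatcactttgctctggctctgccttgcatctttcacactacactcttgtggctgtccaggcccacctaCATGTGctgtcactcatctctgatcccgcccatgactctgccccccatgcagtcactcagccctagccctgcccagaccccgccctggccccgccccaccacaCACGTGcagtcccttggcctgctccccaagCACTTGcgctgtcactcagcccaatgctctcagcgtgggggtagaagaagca
The Cdh15 window holds 4 such letter matches, and 6.49% of the 32851 promoters of the table hold at least 4. The Cdh22 window holds 0, which says that these letters are not in this window. At least 1 match is present in 72.3% of all promoters and in 13 of the 21 genes of the set that the table holds. A match describes the letters and is not a binding site.

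Cdh18, a neural type II cadherin, had 5.82, 6.40 and 6.35 in occluded mucosa, 5.15, 5.92 and 5.85 in open mucosa, and 6.51, 6.26 and 6.27 in normal mucosa. The open replicates were all below the normal ones, and the occluded replicates overlapped both groups. The occluded minus open difference was 0.55 ± 0.19 (limma adjusted p = 0.60), with 3 of 3 pairs higher, and open minus normal was -0.71 ± 0.24 (limma adjusted p = 1.0). When 50 was added to each intensity ahead of the log2 step, these were 0.28 and -0.36, so the sizes depend on how dim signals are treated.

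Among the other type II genes, Cdh9 differed by 0.60 ± 0.31 and Cdh20 by 0.32 ± 0.15 in occluded minus open. The Cdh9 probe lay at or above the noise limit on 19 of 27 arrays, its pairs differed by 1.09, -0.24 and 0.94, and with 50 added to the intensities the difference was 0.15. Cdh20 had 5.80, 5.75 and 6.21 in occluded mucosa and 5.34, 5.66 and 5.81 in open mucosa, against 5.59, 5.52 and 5.67 in normal mucosa. Its occluded replicates lay above all normal ones, narrowly, and they overlapped the open ones. Cdh6, known as K-cadherin from kidney, had 6.78, 6.09 and 6.43 in occluded mucosa, 6.72, 6.71 and 6.37 in open mucosa and 5.92, 6.22 and 6.24 in normal mucosa. Here the open replicates lay above the normal ones, by 0.47 ± 0.24 (limma adjusted p = 1.0). Cdh7, Cdh10 and Cdh24 differed by -0.13 ± 0.14, -0.04 ± 0.30 and -0.08 ± 0.18 in occluded minus open.

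Cdh5 (VE-cadherin), which joins the endothelial cells of blood vessels, had 9.73, 9.37 and 9.40 in occluded mucosa, 9.88, 9.49 and 9.87 in open mucosa, and 9.26, 9.67 and 9.57 in normal mucosa. The 3 groups overlapped, and occluded minus open was -0.25 ± 0.16, lower on the occluded side in 3 of 3 pairs. The 8 endothelial markers had a median of -0.13, with 3 above 0, and a mean log2 intensity of 8.71 to 8.97 in occluded, 8.88 to 9.32 in open and 8.66 to 9.17 in normal replicates. Cdh11 (OB-cadherin), a cadherin of mesenchyme and bone-forming cells, differed by -0.49 ± 0.49, and by -0.60, -0.52 and -0.35 in the 3 pairs. The 8 fibroblast markers all lay below 0 in occluded minus open, with a median of -0.25, and 0 of them reached an unadjusted p under 0.05. Of 9 measured bone and cartilage markers, 6 lay above 0 and 3 below in the same comparison, with a median of 0.03. The part of these cells in the Cdh5 and Cdh11 values was not tested.

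The cadherins outside both classical types had the narrowest intervals of the families in occluded minus open, with a median reach of 0.35 on either side. Their median occluded minus open difference was 0.09, all 5 had intervals within 1 log2 unit of 0, and 0 reached an unadjusted p under 0.05 in any comparison. Cdh13 (T-cadherin), which is held in the membrane by a lipid anchor, differed by 0.12 ± 0.16. Cdh16 and Cdh17, cadherins with 7 repeats known from kidney and from liver and intestine, differed by 0.09 ± 0.15 and 0.22 ± 0.30. Cdh23, which with Pcdh15 forms the tip links of inner ear hair cells, differed by -0.13 ± 0.14, and by -0.27 ± 0.18 in occluded minus normal. Cdh26 had 10.98, 11.14 and 11.10 in occluded mucosa, 10.89, 11.12 and 11.19 in open mucosa, and 11.15, 11.09 and 10.91 in normal mucosa, and its differences were at most 0.02 in size.

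The delta protocadherins, which signal through long cytoplasmic tails and act in neural wiring, had a median occluded minus open difference of -0.01, with 2 of 7 above 0. Pcdh8, known in rat as arcadlin, whose transcript is induced by activity in hippocampal neurons, had 8.04, 8.69 and 8.63 in occluded mucosa, 8.77, 8.70 and 9.05 in open mucosa, and 8.11, 8.64 and 8.37 in normal mucosa. Its open replicates lay above all occluded and all normal replicates, and the nearest occluded replicate was almost level with them. The differences were -0.39 ± 0.19 for occluded minus open (limma adjusted p = 0.87), 0.08 ± 0.25 for occluded minus normal and 0.47 ± 0.25 for open minus normal. Counting genes whose groups did not overlap, 3 were higher in occluded than in open mucosa (Cdh22, Cdh15 and Pcdhb3) and Pcdh8 was lower. That is 4 of 56 (7.14%), beside 6.7% of all probes (3.76% higher and 2.94% lower).

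Pcdh1, a protocadherin of airway epithelium in man, differed by -0.01 ± 0.20 in occluded minus open, Pcdh7 by -0.01 ± 0.22 and Pcdh9 by 0.20 ± 0.16. Pcdh18 differed by -0.32 ± 0.38 and Pcdh19, a gene of inherited epilepsy in man, by -0.19 ± 0.20. The representative probes of these 5 had overlapping groups in each comparison.

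The 4 other protocadherins outside the clusters all lay above 0 in occluded minus open, between 0.01 and 0.34. Pcdh20 had 7.67, 8.01 and 8.33 in occluded mucosa, 7.73, 7.56 and 7.70 in open mucosa, and 8.46, 8.51 and 8.25 in normal mucosa. The open replicates were all below the normal ones, and the occluded replicates overlapped both. Open minus normal was -0.75 ± 0.22 (limma adjusted p = 1.0), the smallest p of the 56 genes in that comparison, at 0.0078 before adjustment. The second probe of Pcdh20 differed by 0.31 in the same comparison, opposite in sign, and with the mean of both probes the difference was -0.22. With the median of the 3 arrays of a replicate in place of their mean, its occluded minus open value was -0.15, against 0.34 here. Pcdh21, known in mouse from photoreceptors and from mitral cells of the olfactory bulb, had 11.28, 11.82 and 11.85 in occluded mucosa, 11.23, 11.40 and 11.52 in open mucosa and 11.67, 11.32 and 11.71 in normal mucosa. Its groups overlapped, and occluded minus open was 0.27 ± 0.17, higher in 3 of 3 pairs. Pcdh12, a protocadherin of endothelial cells, differed by 0.01 ± 0.18, and Pcdh15 by 0.10 ± 0.23.

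**Figure D2:**
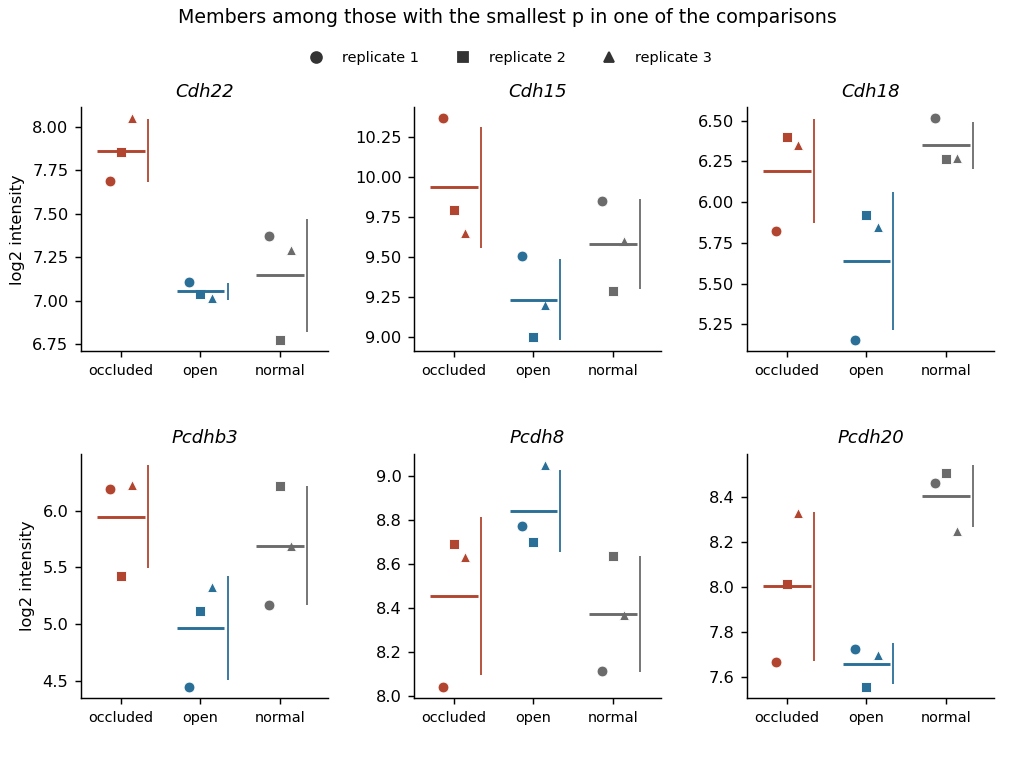
Log2 intensity (vertical axis) of Cdh22, Cdh15, Cdh18, Pcdhb3, Pcdh8 and Pcdh20 in occluded, open and normal mucosa; symbols are the 3 biological replicates, horizontal lines the means and vertical lines the SD. The 3 occluded values of Cdh22 (7.69 to 8.05) lie above all others of that gene, the open values of Pcdh8 (8.70 to 9.05) lie above the other groups, and the open values of Pcdh20 (7.56 to 7.73) lie below the normal ones.

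The beta cluster is the largest family here, and its 21 genes had a median occluded minus open difference of -0.17, with 13 below 0 and 8 above. By pair, the median over the 19 detected beta genes was -0.10, -0.09 and 0.07, and 5, 7 and 11 of the 19 lay higher on the occluded side. The direction of the median was therefore not the same in the 3 pairs. In occluded minus normal the median over the 21 was -0.0033, and in open minus normal it was 0.13.

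Pcdhb3 was the beta gene furthest from 0, and its probe lay at or above the noise limit on 26 of 27 arrays. It had 6.19, 5.42 and 6.23 in occluded mucosa, 4.45, 5.11 and 5.33 in open mucosa, and 5.17, 6.22 and 5.69 in normal mucosa. All 3 occluded replicates lay above all open ones, and normal overlapped both. The occluded minus open difference of 0.98 ± 0.30, or 1.98-fold, was positive in 3 of 3 pairs (limma adjusted p = 0.50), and open minus normal was -0.73 ± 0.38. With the same addition of 50 the occluded minus open value was 0.44.

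Pcdhb15 had 5.76, 6.08 and 5.96 in occluded mucosa, 5.98, 6.34 and 6.16 in open mucosa, and 6.40, 6.19 and 6.57 in normal mucosa. Its occluded replicates were all below the normal ones, by -0.45 ± 0.19 (limma adjusted p = 1.0). Cdh22, Cdh20 and Pcdhb15 were the genes whose occluded and normal replicates did not overlap, 3 of 56 (5.36%), beside 6.67% of all probes (3.57% higher and 3.09% lower). For open against normal these were Cdh6 and Pcdh8, with open higher, and Cdh18 and Pcdh20, with open lower, 4 of 56 (7.14%), beside 4.27% of all probes (2.06% higher and 2.21% lower). Occluded against normal and open against normal share the normal samples.

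Further beta genes named by the smallest p had overlapping groups. Pcdhb22 differed by -0.25 ± 0.16 in occluded minus open, Pcdhb18 by -0.50 ± 0.30 and Pcdhb9 by 0.85 ± 0.48 in occluded minus normal. Pcdhb9 had 5.56, 6.06 and 5.15 in occluded mucosa and 5.64, 5.03 and 5.39 in open mucosa, against 5.51, 5.03 and 3.69 in normal mucosa, so that 1 normal replicate was low. Without it, the occluded minus normal difference of Pcdhb9 was 0.32. In open minus normal Pcdhb2 differed by 0.29 ± 0.20, Pcdhb19 by 0.28 ± 0.23 and Pcdhb8 by -0.28 ± 0.23. The remaining detected beta genes differed by -0.35 to 0.14 in occluded minus open, with Pcdhb21 at the lower and Pcdhb13 at the upper end. Pcdhb5, at or above the noise limit on 5 of the 27 arrays and on 0 of the 9 occluded ones, had an unadjusted p of 0.033 (limma adjusted p = 0.74), and no fold is given for it.

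The alpha cluster is represented by Pcdha1, with 11.27, 11.15 and 11.27 in occluded mucosa, 11.33, 11.90 and 10.95 in open mucosa, and 11.14, 11.63 and 11.05 in normal mucosa. The occluded replicates lay within the range of the open ones, and the difference was -0.16 ± 0.23. Of the gamma cluster, Pcdhgc5 had 8.03, 7.36 and 7.84 in occluded mucosa, 7.60, 6.81 and 7.40 in open mucosa, and 7.49, 7.69 and 7.36 in normal mucosa. The groups overlapped, while the occluded side was higher in 3 of 3 pairs, by 0.47 ± 0.19 (limma adjusted p = 0.76). Its 4 other probes differed by -0.03 to -0.23, and the mean of all 5 by -0.03. Pcdhga2 differed by 0.22 ± 0.20.

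**Figure D3:**
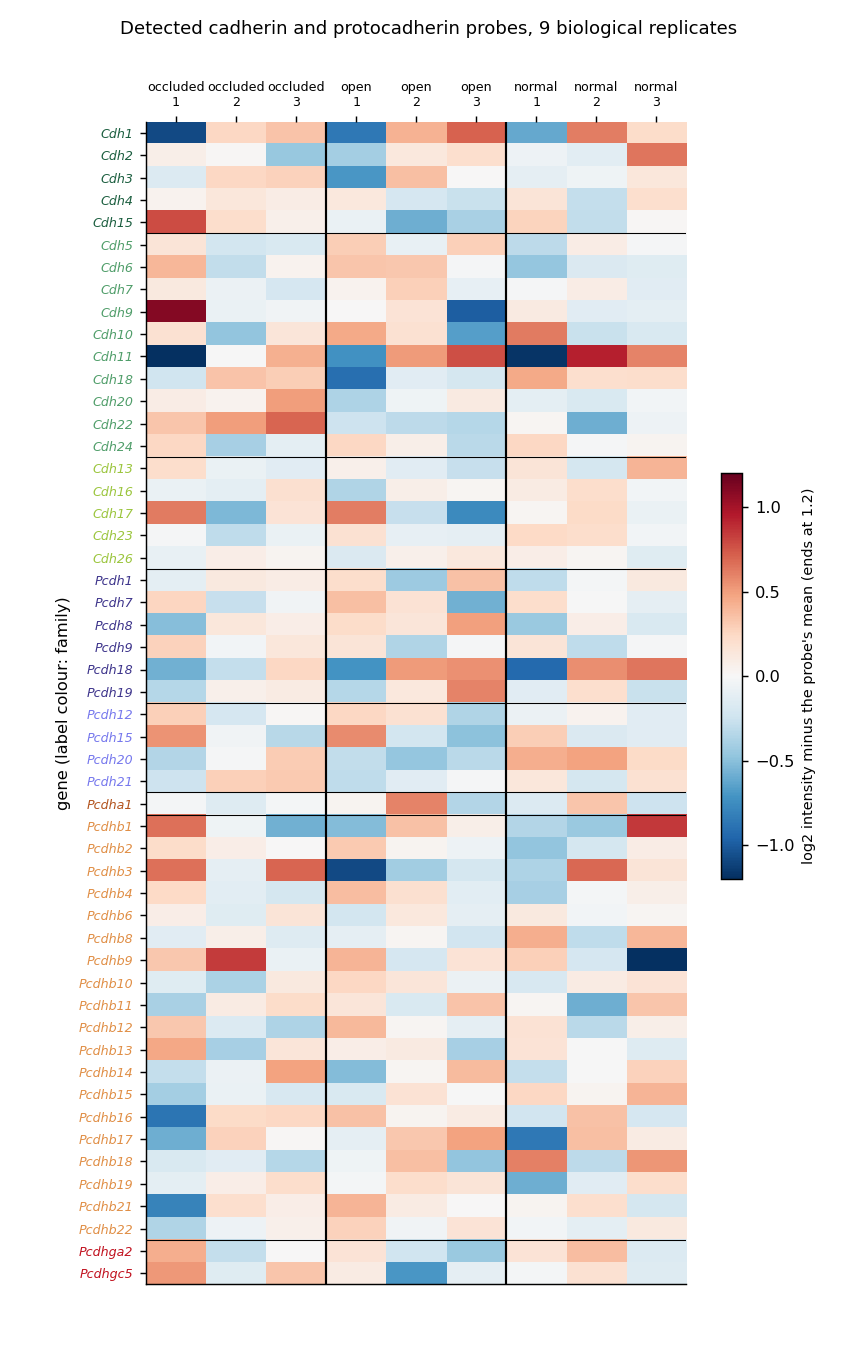
Heat map of the 52 detected genes (rows, labels coloured by family) in the 9 biological replicates (columns): each cell is the log2 intensity minus the mean of that probe, red above and blue below it. Cdh1, Cdh11 and Pcdh18 are blue in replicate 1 of all 3 groups, and Cdh22 is red in the 3 occluded columns.

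The replicate number held more variance than the group in 30 of the 52 detected genes (57.7%), beside 72.1% of the detected probes. Cdh11 had 8.15, 9.49 and 9.92 in occluded mucosa, 8.76, 10.002 and 10.26 in open mucosa, and 8.31, 10.42 and 10.08 in normal mucosa. Replicate 1 was the low one in each group, by 1.62 log2 units against the mean of the other numbers. Cdh1 was lower by 1.27 and Pcdh18 by 1.11 in the same way, and Pcdhb17, Pcdhb14 and Cdh3 were also below all other values in replicate 1. Pcdh15 lay 0.70 higher in replicate 1, and Pcdh9, Pcdhb12, Cdh24 and Pcdh7 were above all other values there as well. The normal mice are other individuals than the operated ones, and no label says what a number shares across groups.

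Of the 52 detected genes, 6 (11.5%) had replicate 1 below all others and 5 (9.62%) above, beside 11.8% and 13.4% of the 25880 detected probes, so these shares are near the background of the array. The group accounted for a median of 19.3% of the variance of a gene and the replicate number for 32.2%, beside 12.1% and 37.7% over the detected probes. Such a share lies above 0 also where groups do not differ, so it is read only beside that of the detected probes. The group held 80.7% for Cdh22 and 75.5% for Pcdh20, whose representative probes each had the smallest p in a comparison. Both were picked by a p from these same values, so a high share was fixed in advance and adds no support. For Cdh1 the number held 91.6%. The fibroblast markers had a mean of 11.67 in occluded, 11.66 in open and 11.46 in normal replicate 1, and of 11.77 to 12.95 in the other replicates. Bone and cartilage markers had 10.15, 9.69 and 9.94 in replicate 1 and 9.86 to 12.27 in the others, so these ranges overlapped. Sustentacular markers, of the supporting cells of the epithelium, had 12.63, 12.63 and 12.78 in replicate 1 and 13.11 to 13.50 in the others. The part of these cells in the Cdh1 and Cdh11 values was not tested.

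**Figure D4:**
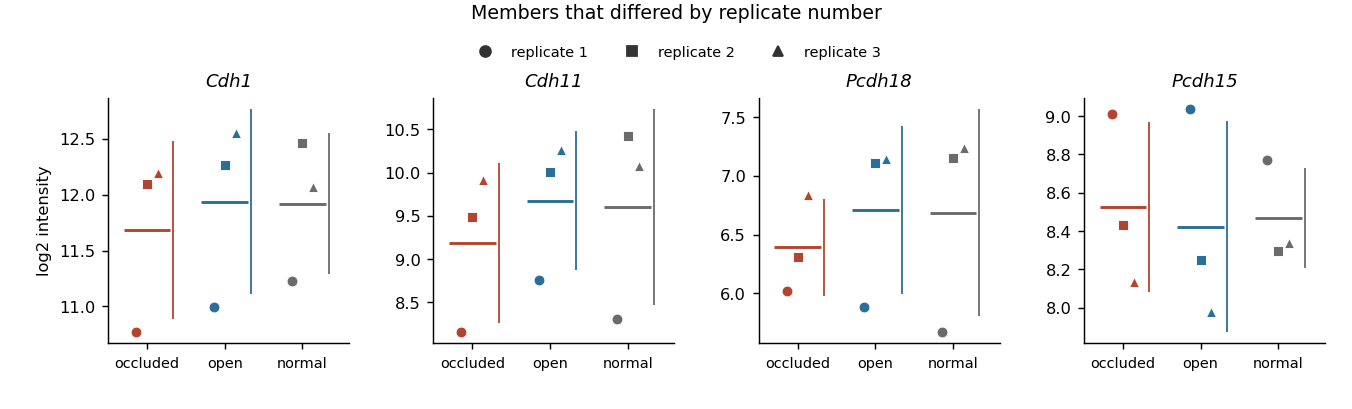
Log2 intensity (vertical axis) of Cdh1, Cdh11, Pcdh18 and Pcdh15 in occluded, open and normal mucosa, with a symbol for each replicate number, the mean as a horizontal and the SD as a vertical line. The circle, replicate 1, is the lowest value of each group for Cdh1, Cdh11 and Pcdh18 and the highest for Pcdh15.

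For 17 genes the array carried more than 1 probe, 27 additional probes in all, of which 22 were detected. Over the 9 replicate values, their correlation with the representative probe of the gene had a median of 0.096 and ran between -0.687 and 0.986, as a description over values that share arrays and animals. It was 0.986 for the second probe of Cdh11, 0.871 for 1 probe of Cdh2 and 0.695 and 0.639 for those of Pcdh9. For Cdh3, Cdh7 and Pcdhb2 it was -0.687, -0.681 and -0.663. In occluded minus open the additional probes differed by -0.41 and -0.30 for Cdh2, by -0.11 for Cdh3, 0.26 for Cdh7, -0.30 for Cdh11, 0.15 for Cdh13 and 0.32 for Cdh20. Those of Pcdh12 and Pcdh20 differed by -0.12 and 0.36, and the detected ones of Pcdha1 by -0.25 to 0.51. Of the beta genes, the second probe of Pcdhb19 differed by -0.66 ± 0.28 and that of Pcdhb2 by -0.04. Of the 22 detected additional probes, 11 had the sign of the representative probe in occluded minus open.

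Of the additional probes, 1 of Pcdh9 lay furthest from 0 in occluded minus open. It had 6.37, 5.51 and 5.25 in occluded mucosa, 4.35, 4.32 and 4.13 in open mucosa, and 4.54, 3.58 and 4.80 in normal mucosa. The occluded replicates lay above all replicates of both other groups, by 1.44 ± 0.29 against open (limma adjusted p = 0.16) and 1.40 ± 0.38 against normal (limma adjusted p = 0.85). Its unadjusted limma p against open was 0.00096, below the 0.0010 of Cdh22, whose p was the smallest among representative probes only. The other probes of Pcdh9 differed by 0.20 and 0.36 from open, so the probes of the gene differ in size and not in sign. The probe at 1.44 was at or above the noise limit on all 9 occluded, 7 open and 7 normal arrays.

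**Figure D5:**
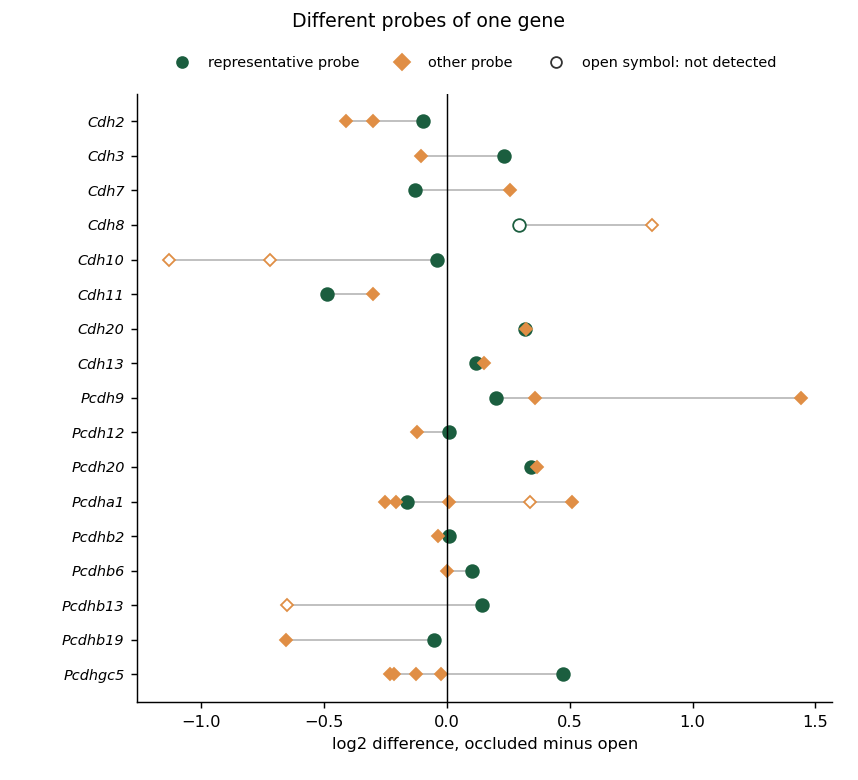
Log2 difference occluded minus open (horizontal axis) of every probe of the 17 genes with more than 1 probe (vertical axis); circles are representative probes, diamonds the other probes, open symbols were not detected and grey lines join the probes of a gene. The probes of Cdh13 and Cdh20 lie together in this mean difference, though over the replicates they correlated at only 0.231 and -0.051. Those of Pcdhgc5 and Cdh7 lie on both sides of 0, and 1 probe of Pcdh9 stands at 1.44.

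Over the 9 replicates, the correlation between 2 genes of a family had a median near 0. No such value was taken over all genes, and additional probes had a median of only 0.096 with the representative probe of their own gene. These values therefore cannot decide whether the genes share a course. The median correlation between 2 genes was 0.026 among the 19 detected beta genes, -0.042 among the 20 detected cadherins and -0.034 among the 10 detected protocadherins outside the clusters. Genes whose values were most like those of Cdh22 over the 9 replicates, of 15280 named genes compared, were Smarcb1 (r = 0.981), Sh3glb2 (0.971), Mtfmt (0.967), Tmem117 (0.967) and Edn2 (0.955). These correlations describe 9 points that share arrays and mice.

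Genes that work with cadherins had 0 calls as well. In occluded against open mucosa 0.221% of all probes passed, so 0 calls in lists of this size is near that share. Of all probes, 6.19% had an unadjusted p under 0.05 in that comparison and 50.7% lay above 0. The lists also count Arvcf, Dsc2 and Fyn, whose probes were at or above the noise limit on 0, 3 and 3 arrays. Of the 16 catenins and junction partners, which link cadherins to the actin skeleton and the keratin filaments, 0 passed and 0 reached an unadjusted p under 0.05 in any comparison, with a median of -0.05 in occluded minus open. Those with the smallest p there were Dsp at -0.25 ± 0.13, Ctnna2 at -0.26 ± 0.19 and Jup at 0.23 ± 0.19. Of 20 measured genes of the wider cadherin superfamily (desmosomal cadherins, Fat, Dachsous, Celsr and others, with Pcdh21 counted again as Cdhr1), 0 passed and 3 reached an unadjusted p under 0.05 in occluded against open. These were Dsg3, a desmosomal cadherin, at 0.80 ± 0.33, the receptor tyrosine kinase gene Ret at -0.43 ± 0.19, and Dsg1a, which was at or above the noise limit on 1 array and is given no fold. The Dsg3 probe was at or above that limit on 7 occluded, 4 open and 4 normal arrays, and its pairs differed by -0.0071, 1.15 and 1.26. Of 18 measured regulators and partners, 0 passed, and 15 lay below 0 in occluded minus open, with a median of -0.11. Of the repressors of Cdh1 in this list, Snai1 differed by 0.04 ± 0.21, Snai2 by -0.0020 ± 0.16 and Twist1 by 0.11 ± 0.20. Zeb1 and Zeb2, also repressors of Cdh1, differed by -0.30 ± 0.14 and -0.35 ± 0.21 (limma adjusted p = 0.85 and 0.93). Cyfip2, which is in the list as a partner and not as a repressor, differed by -0.29 ± 0.23. In occluded minus normal the smallest p of these lists belonged to Zeb1 (-0.34 ± 0.18), Pkp2 (0.30 ± 0.19) and Ret (-0.31 ± 0.24). In open minus normal they belonged to Dsp (0.26 ± 0.17), Wapl (0.26 ± 0.19) and Dsg1a.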

How the data were processed

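Per sample, total RNA was amplified by transcription in vitro and labelled with Cy5, per the labels' protocols, 1 sample to an array. The authors deposited linear probe intensity values, 29922 probes on 27 arrays. For scanner, background method and normalization, the sources used here name none. Since 1.45% to 3.93% of the values of an array were at or below 0, a background had been subtracted. The lowest positive value, 0.912, replaced these before log2. Array medians differed by 1.15 log2 units, which quantile normalization removed, and averaging the 3 arrays of each replicate gave 9 values.

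In R 4.3.3, limma 3.58.1 (with statmod 1.5.0 and the package data.table, version 1.17.8) fitted the 3 groups over all probes, the individual being a random block with a consensus correlation of 0.389, two-sided, with Benjamini-Hochberg adjustment over 29922 probes and a threshold of 0.05. The design text states that open and occluded mucosa came from the same individuals, and reading equal numbers as 1 mouse is an inference from the titles. The noise limit is 3 times the root mean square of the values of an array below 0.

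An annotation table of the array names 21020 probes, and 16633 of its 16675 symbols were found in RefSeq. Genes were named by rule: all detected members outside the clusters, the 3 detected members of a cluster with the smallest p in each comparison, the 5 smallest p in each direction, their other probes, and the smallest p of the partner lists. The members, lists and tests were chosen with earlier results of these data known. Alternatives covered the block, normalization, averaging, dim probes, the probe per gene, the groups fitted, the prior and each replicate left out.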

Additional observations from a re-analysis of the deposited data

How the results depend on the processing

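The count of 0 of 56 cadherins and protocadherins past an adjusted p of 0.05 in limma held in all 14 alternatives of occluded against open and all 17 of each comparison with normal, each replicate left out included. The smallest adjusted p of a member over them was 0.067, 0.67 and 0.91. Over all probes the calls in occluded against open were 66, and 0 to 93 over the alternatives: 37 with median centring, 14 with only the groups compared, 0 without normalization between arrays and 0, 39 and 6 without replicates 1, 2 and 3. In occluded against normal they were 2, and 0 to 24, the highest with an offset of 50. Without normalization between arrays the median over the members moved to 0.09 (0.0866) in occluded minus normal and 0.07 (0.0669) in open minus normal, by more than its spread between replicates; the cause was not tested. Leaving out replicates gave medians of -0.09 to 0.06 in occluded minus open, -0.05 to 0.03 in occluded minus normal and -0.09 to -0.01 in open minus normal.

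The random block rests on reading equal numbers as 1 mouse. The deviations of same-numbered occluded and open replicates correlated at 0.516, -0.00436 and 0.142, and those of occluded and normal replicates, which are other mice, at 0.353, 0.0672 and 0.00152, so the values do not settle the pairing. With a fixed replicate block 0 members and 0 of all probes passed in occluded against open, and with no replicate block 0 members and 3 probes. Differences of single members moved by more than their replicate SD in 20 of 773, 5 of 941 and 12 of 941 values, with 0 calls. Signals near the noise limit, as of Cdh9, limit what dim members can show.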
